A study of Mus musculus with 12 samples.

Results

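Developmental homeobox and patterning factors were followed in 2 forebrain regions, striatum and cortex, of HD (R6/2) and WT mice. The set comprised every gene symbol of the Hox, Pax, sine oculis (Six3 and its relatives), Lhx, Tbx, Nkx, Pou, Onecut, Twist and Gata families, 124 of the 23282 listed genes. These families were selected on the counts of Pou4f1 and Onecut2, which had risen in HD mice after symptom onset. Changes in HD mice at 13 weeks are therefore given as a description, and where a fit across all genes called a member on these values, the call restates the choice and is not evidence for it. R6/2 mice carry, as a transgene driven by the human HTT promoter, the 5′ part of human HTT (exon 1) with an expanded CAG tract, beside both endogenous Htt alleles. HD mice (R6/2) at 13 weeks (post-symptom) and at 8 weeks (pre-symptom) had 2 libraries per region, and WT littermates had 1 library per region at each age. The treatment field of the labels holds only the age. The labels do not say whether each library is 1 mouse, or whether the striatum and cortex of one number come from the same mouse.

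Most of these genes encode transcription factors that specify body axes, regions and cell types in the embryo. The symbols also took in 9 antisense and other noncoding genes, among them Hoxb5os, Hoxd3os1 and Hoxa11os, which are counted with the Hox genes. Hox genes pattern the hindbrain, spinal cord and trunk and are normally kept off in the forebrain, with Polycomb group proteins maintaining the silent state. Other members stay active in the adult forebrain, such as Six3 in striatal projection neurons, Lhx8 and Nkx2-1 in cholinergic and other ventral forebrain neurons, and Lhx2 and Pou3f2 in cortical neurons.

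QuantSeq libraries sequence the 3′ ends of polyadenylated RNA, so that CPM values (counts scaled to library size, here scaled by edgeR's TMM factors) can be compared between genes without a length term. Total counts ranged from 8814386 to 12091201 per library. No molecular identifiers were given, so that limits from counting cover counting error only, and a gene with 0 counts may have had up to 0.254 to 0.351 CPM (3 counts), depending on the library. The 8 markers of striatal neurons and the 8 of cortical excitatory neurons separated the regions in each library, although Drd2 was near 0 throughout and Rtn4rl2 had no count. Replicate 2 of HD striatum at 8 weeks stood apart, with 1356 CPM summed over 6 thalamus markers against 51.7 to 107 CPM in the other libraries. At 13 weeks this sum was 94.3 and 94.2 CPM in HD striatum against 51.7 CPM in WT. In cortex of that age it was 61.7 and 61.4 CPM in HD mice against 91.5 CPM in WT. Replicate 2 of HD striatum at 8 weeks also held 97 of the counts of Lhx9, a diencephalic factor. Choroid plexus markers summed to 963 CPM in the same library. Their sum was also above WT in all 4 post-symptomatic HD libraries. It was 127 and 90.8 CPM in striatum against 17.5 CPM in WT, and 69.4 and 3031 CPM in cortex against 6.01 CPM in WT. Ttr was most of it, at 108 and 77.6 CPM in striatum and 66.6 and 2963 CPM in cortex. The 8-week HD striatum library with 963 CPM had all 6 markers above the WT striatum of that age. Among the 4 post-symptomatic HD libraries, only replicate 2 of 13-week HD cortex had all 6 markers above WT. In the other post-symptomatic HD libraries, markers besides Ttr lay on both sides of WT. In HD striatum, the striatal neuron markers summed to 1326 and 1351 CPM at 13 weeks against 7438 CPM in WT, and in bulk tissue fewer cells of a type and less RNA per cell cannot be told apart. Rn45s, the ribosomal RNA precursor, took 10.5% to 15.2% of the counts in HD libraries and 4.32% to 5.62% in WT libraries. By Xist counts, the 2 replicates of each HD group differed in sex, as did the WT libraries of the 2 ages.

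A member was called silent when its counts summed to 12 or less over the 4 WT libraries. This held for 93 of the 124 members, of which 58 had no WT count, and for 8178 of all listed genes. Pou4f1 and Tbx6 lay at the limit with 12 WT counts each, and Nkx2-9 lay just outside with 13. The 42 Hox genes were silent without exception. Among all 124 members, 29 had no count in any library. Of the silent members, 60 had at least 1 count in an HD library.

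Promoters of 3 members that were silent in WT and had reads in post-symptomatic HD cortex are shown, because they differ widely in base composition. Each is the 250 bases before the transcription start (RefSeq, GRCm38.p6), written 5′ to 3′ on the gene's strand, with CG dinucleotides in capitals. The window of Pou4f1 is chr14:104468000-104468249 (minus strand), that of Twist1 is chr12:33957421-33957670 (plus strand) and that of Hoxd8 is chr2:74704365-74704614 (plus strand), which lies within the antisense gene Hoxd3os1.
Pou4f1: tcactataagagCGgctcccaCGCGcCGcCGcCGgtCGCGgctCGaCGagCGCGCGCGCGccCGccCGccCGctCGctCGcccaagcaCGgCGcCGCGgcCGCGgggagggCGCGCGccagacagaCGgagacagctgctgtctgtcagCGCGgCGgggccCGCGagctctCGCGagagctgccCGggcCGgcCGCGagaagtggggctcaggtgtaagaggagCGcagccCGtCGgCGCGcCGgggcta
Twist1: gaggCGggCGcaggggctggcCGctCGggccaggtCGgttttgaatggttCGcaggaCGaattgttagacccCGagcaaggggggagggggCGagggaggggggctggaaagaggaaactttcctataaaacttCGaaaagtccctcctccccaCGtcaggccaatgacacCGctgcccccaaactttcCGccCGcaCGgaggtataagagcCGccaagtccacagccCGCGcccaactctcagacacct
Hoxd8: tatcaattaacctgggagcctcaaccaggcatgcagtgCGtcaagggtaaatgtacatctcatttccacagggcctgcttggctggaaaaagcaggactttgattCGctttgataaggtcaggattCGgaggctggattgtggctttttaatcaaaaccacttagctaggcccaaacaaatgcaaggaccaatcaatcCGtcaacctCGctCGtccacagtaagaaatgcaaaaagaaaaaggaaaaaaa
The Pou4f1 window held 47 CG dinucleotides, a number reached by 0.244% of the 27025 promoters of the same length. Twist1 held 18 (reached by 21.6%) and Hoxd8 held 6 (reached by 50.5%). RefSeq promoters were found for 87 members, with a median of 13 CG against 6 over all promoters. The median was also 13 in the 12 matched members with both HD libraries above WT in 13-week cortex and in the 52 other silent members matched. The letters GGGCGG were present on either strand in 59.8% of the members' windows and in 32.9% of all windows, with a match in Pou4f1 and Twist1 and none in Hoxd8. TATAAA was present on either strand in 11.5% of the members' windows and in 13.0% of all windows, with a match in Twist1. A GGGCGG and a TATAAA do not overlap each other, although neighbouring GGGCGG matches can, as in Pou4f1. Each GGGCGG holds 1 of the CG counted above.

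Pou4f1 (also known as Brn3a, chr14:104461676-104467999, minus strand) encodes a POU factor of sensory ganglia and the medial habenula. Its counts in HD cortex at 13 weeks were 283 and 144, against 6 in the WT cortex of that age. In HD striatum at 13 weeks they were 44 and 57, against 0 in WT. All 4 post-symptomatic HD libraries were above all other libraries, which held 0 to 6 counts. In HD mice at 8 weeks the counts were 0 and 1 in striatum and 5 and 0 in cortex, and WT mice of 8 weeks had 1 and 5. In 13-week cortex this was 18.5 ± 8.20 CPM (SD, n = 2) against 0.508 CPM, 36.5-fold. In 13-week striatum it was 5.10 ± 1.41 CPM (SD, n = 2), at least 17.8-fold above the 3-count limit of the WT library. The 4 libraries with these reads were also those of 13 weeks in which the choroid plexus sum, mostly Ttr, was above WT. Replicate 2 of HD striatum at 8 weeks, in which this sum was 963 CPM, held 1 count of Pou4f1. Markers of the habenula, summed over 6 genes, had 47.9 and 41.4 CPM in HD cortex and 82.2 CPM in WT cortex at 13 weeks, and 8.67 and 4.70 CPM in HD striatum against 10.2 CPM in WT. Most of the cortical sum was Nwd2, which the cortex libraries held at 38.8 to 116 CPM. Of the other habenula markers, Gng8 had 7 and 19 counts in HD striatum against 5 in WT and 10 and 7 in HD cortex against 7 in WT. Chrnb4 had 7 and 1 counts in HD striatum against 0 in WT and 1 and 4 in HD cortex against 1 in WT. Chrna3 had 0 and 0 counts in HD striatum against 3 in WT and 1 and 18 in HD cortex against 12 in WT. Chrnb3 had 0 and 2 counts in HD striatum against 1 in WT and 2 and 0 in HD cortex against 33 in WT. Gpr151 had at most 5 counts in any library. The part of choroid plexus or habenula tissue in the Pou4f1 counts was not tested.

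Twist1 (chr12:33957671-33959829, plus strand), a basic helix-loop-helix factor of cranial mesenchyme, showed cortical reads in a narrow range. It had 101 and 102 counts in HD cortex and 4 in WT cortex at 13 weeks. In HD striatum of that age it had 5 and 4 counts against 0 in WT. The 2 cortical HD libraries stood apart from the other 10, which held 0 to 5 counts. The cortical level was 8.84 ± 0.233 CPM (SD, n = 2), 26.1-fold that of WT cortex (0.338 CPM). Twist2, its paralog, did not follow it, with 5 and 12 counts in HD cortex and 16 in WT cortex at 13 weeks. Meningeal fibroblast markers, which mark a mesenchymal source, summed to 96.1 and 201 CPM in these HD cortex libraries and to 100 CPM in WT cortex. Choroid plexus markers summed to 69.4 and 3031 CPM in them, mostly Ttr, against 6.01 CPM in WT cortex. The part of either tissue in the Twist1 counts was not tested.

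Pax2 and Six2, both regulators of kidney and sensory organ development, also had reads in HD cortex at 13 weeks. Pax2 (chr19:44756045-44837871, plus strand) had 33 and 22 counts there, 0 in the WT cortex of that age, and at most 1 in each other library. Its level of 2.39 ± 0.631 CPM (SD, n = 2) was at least 9.41-fold above the limit of the WT library. Six2 had 21 and 19 counts in HD cortex against 5 in WT, and 6 and 1 in HD striatum against 0. These levels are low, and the Six2 counts of the striatum overlapped those of WT at 8 weeks.

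**Figure D1:**
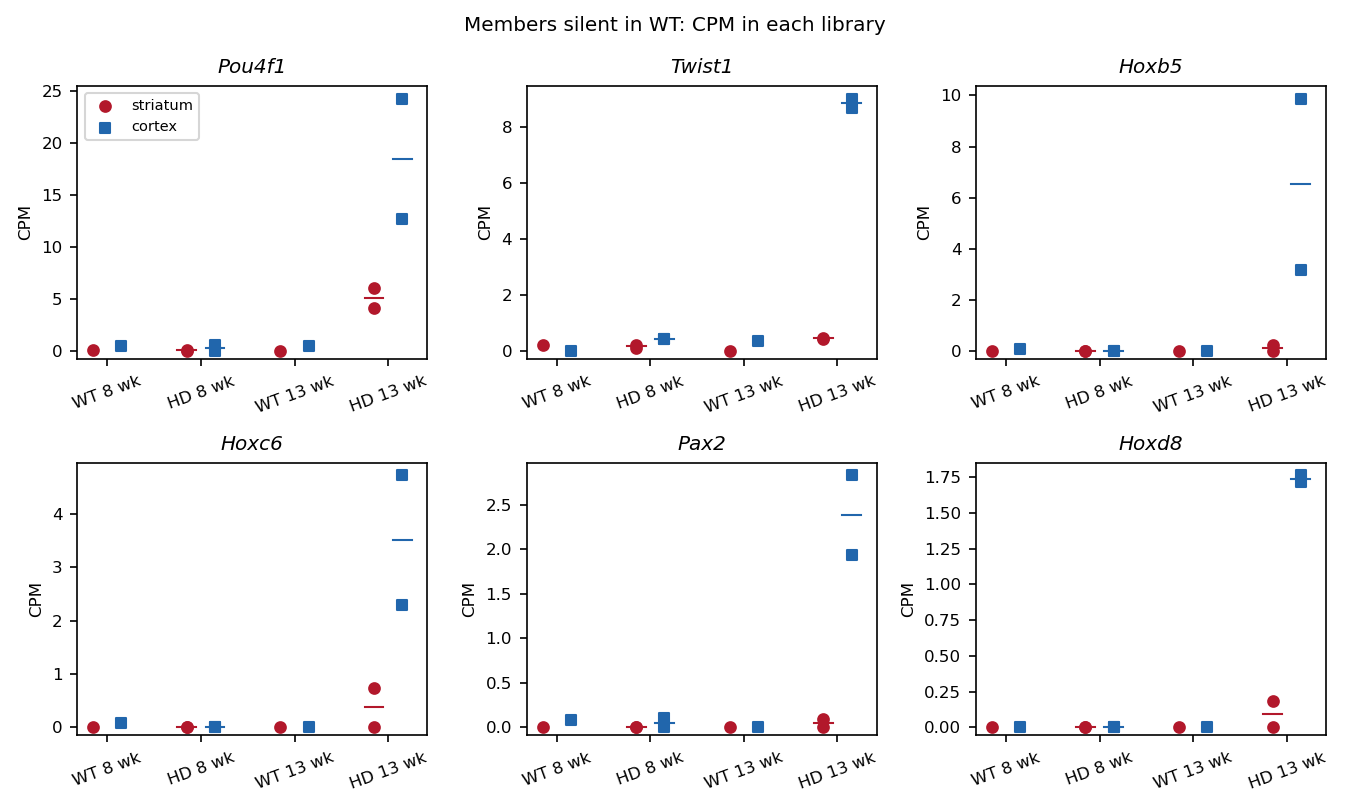
CPM of 6 members silent in WT, by genotype and age on the x axis, with a circle for each striatum library, a square for each cortex library and a line at the mean of 2 HD libraries. In each panel the 13-week HD cortex libraries lie above all WT and 8-week libraries, and in Pou4f1 both 13-week HD striatum libraries do as well.

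Hox genes made up 42 of the 93 silent members. Of the silent members with a count, they were 18 of 33 in replicate 1 and 10 of 27 in replicate 2 of 13-week HD cortex. Nothing is read from these shares. Counts summed over the 42 Hox genes were 280 and 104 in HD cortex at 13 weeks and 1 in the WT cortex of that age. In HD striatum at 13 weeks they were 42 and 10 against 1 in WT. At 8 weeks the sums were 2 and 9 in HD striatum, 8 and 19 in HD cortex, and 0 and 12 in WT striatum and cortex. The 13-week HD sums were above the 8-week HD sums in both regions, but in striatum the nearest libraries, with 10 and 9 counts, were hardly apart.

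The reads did not spread evenly over the clusters. In replicate 1 of HD cortex at 13 weeks, 148 counts came from the Hoxb cluster, 83 from Hoxc, 25 from Hoxd and 24 from Hoxa. In replicate 2 the counts were 57, 27, 20 and 0. Hoxb5, a trunk-level factor of the Hoxb cluster (chr11:96303336-96306121, plus strand), was the leading gene with 115 and 36 counts. It had 0 counts in the WT cortex of that age, and 0 to 2 in each other library, so that its level of 6.53 ± 4.74 CPM (SD, n = 2) was at least 25.7-fold above the limit of the WT library. Its neighbours in the cluster had far fewer reads, with 3 and 2 counts for Hoxb6, 2 and 1 for Hoxb4 and 16 and 5 for Hoxb8. Hoxb5os, an antisense gene that overlaps Hoxb5, had no count in any library. Whether reads were counted by strand is not given in the sources used here.

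Hoxc6 (chr15:102998257-103011881, plus strand) had 55 and 26 counts in HD cortex, 8 and 0 in HD striatum and 0 in both WT libraries at 13 weeks. In GENCODE it overlaps the Hoxc5 gene on the same strand, so that reads of the 2 genes may be split between them. Hoxc5 had 11 and 0 counts in HD cortex and 8 and 0 in HD striatum. Hoxd8 had 20 counts in each HD cortex library, 2 and 0 in HD striatum and 0 in the other 8 libraries. Its cortical level was 1.74 ± 0.0337 CPM (SD, n = 2), at least 6.86-fold above the limit of the WT library. Hoxc6, Hoxd8 and the further Hox genes given here were named after their values were seen, except Hoxb5 and Hoxb7. Hoxb7 had 1 and 2 counts in HD striatum, 2 and 4 in HD cortex and 0 in all WT libraries, which lies around the level of 3 counts.

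**Figure D2:**
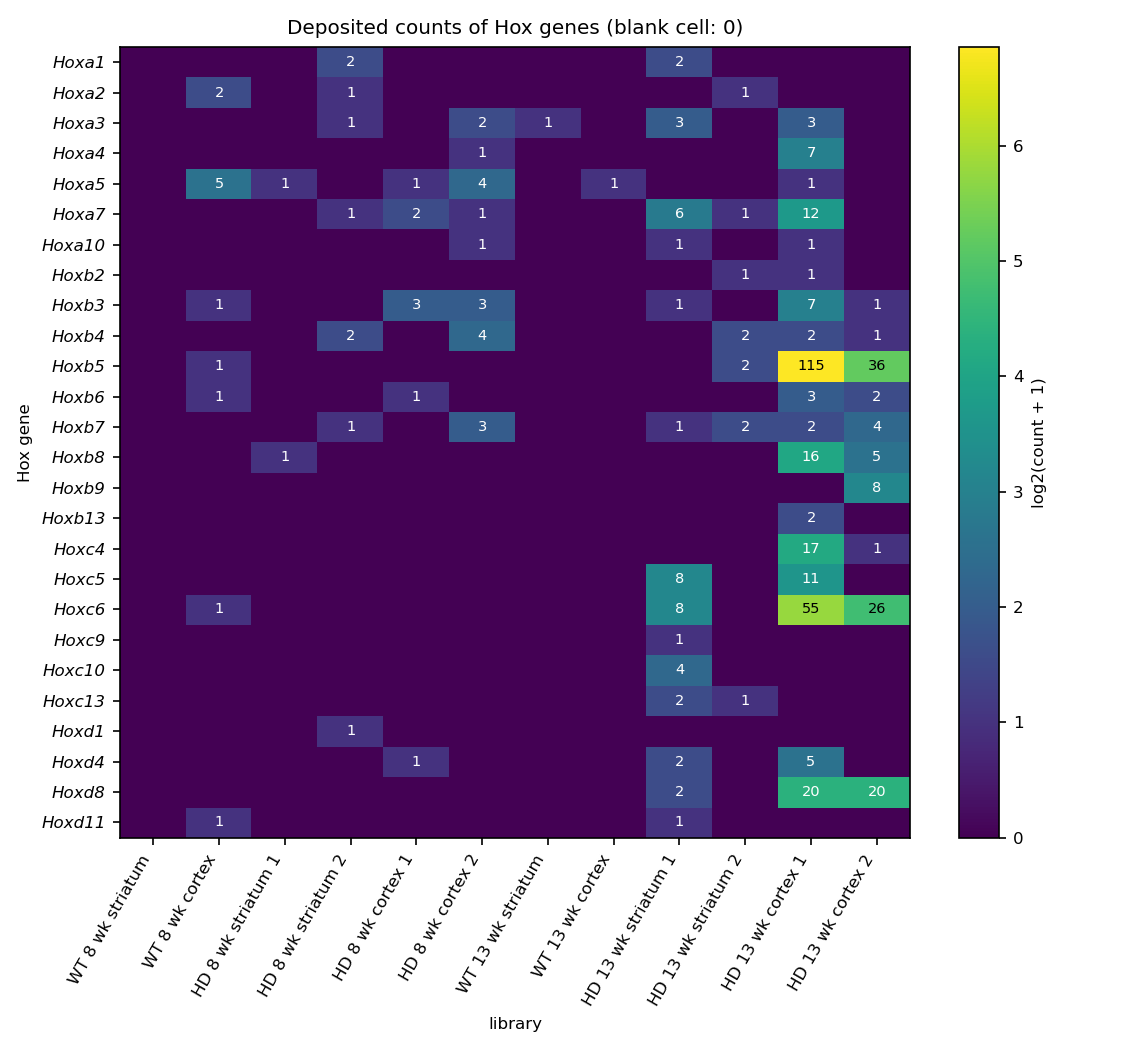
Deposited counts of the 26 Hox genes with a count, by gene on the y axis and library on the x axis, coloured by log2(count + 1) and with the count printed in each cell above 0. Hoxb5, Hoxc6 and Hoxd8 hold 20 to 115 counts in both 13-week HD cortex libraries, and the WT columns hold at most 5 counts per gene.

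A silent gene was counted as above WT when both HD libraries of a region had a higher CPM than the WT library of that region and age. In 13-week cortex this held for 19 of the 93 silent members (20.4%), beside 6.27% of all silent genes. In 13-week striatum it held for 11 (11.8%), beside 4.92%. In both regions it held for 6 members (6.45%), beside 1.8% of all silent genes, and these were Pou4f1, Twist1, Lhx9, Six2, Gata6 and Hoxb7. Without replicate 2 of 13-week HD striatum, it held for 11 members, and the share over all silent genes was not taken for this setting. Because the families were chosen for rising at this age, nothing is read from these shares. At 8 weeks, 7 members were above WT in cortex (7.53%, beside 6.22%), 3 in striatum (3.23%, beside 4.87%) and 0 in both (beside 1.71%). The shares at 8 weeks thus lay on either side of those over all silent genes.

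**Figure D3:**
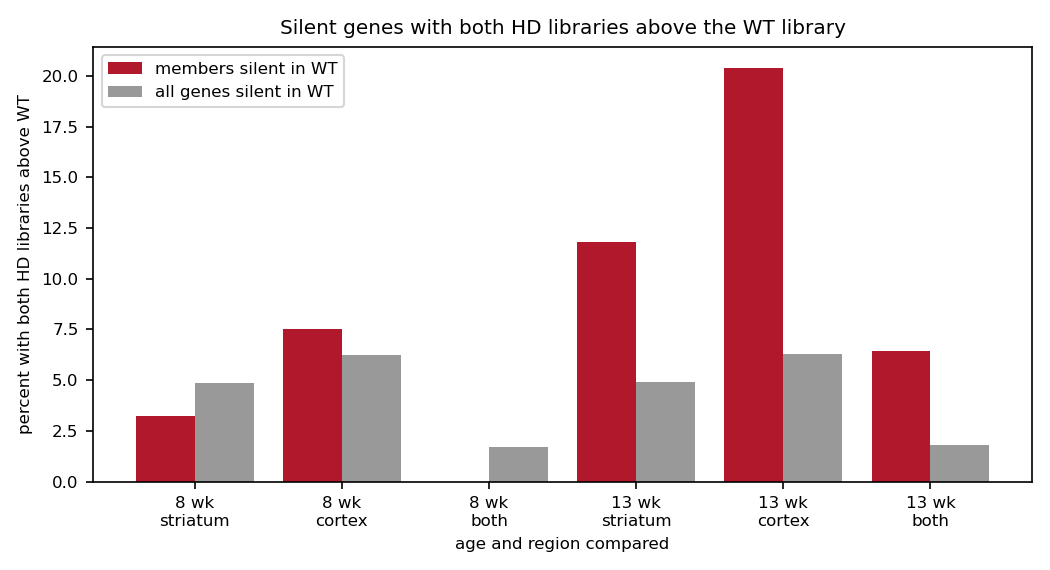
Percent of the 93 silent members and of the 8178 silent genes with both HD libraries above the WT library, by age and region. The member bars range from 0% (8 weeks, both regions) to 20.4% (13-week cortex), and the bars of all silent genes from 1.71% to 6.27%.

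Several of these members had few counts or were high in the library with the highest sum of thalamus markers. Lhx9 had 14 and 10 counts in HD striatum and 26 and 42 in HD cortex at 13 weeks, against 4 and 1 in WT. Its highest count, 97, was in the 8-week HD striatum library with the highest sum of thalamus markers. That sum was also above WT in 13-week HD striatum but below WT in 13-week HD cortex. Gata6, a factor of endoderm and heart, had 7 and 4 counts in HD striatum and 1 and 13 in HD cortex at 13 weeks, against 3 and 0 in WT. Counts summed over silent members without Pou4f1 were 129 and 69 in HD striatum and 488 and 350 in HD cortex at 13 weeks, against 36 and 32 in WT. At 8 weeks they were 41 and 179 in HD striatum and 39 and 57 in HD cortex, against 30 and 31 in WT. The 179 was in the library that stood apart. Counts over all silent genes were 6713 and 4919 in HD striatum and 5950 and 6419 in HD cortex at 13 weeks. WT had 3131 and 3295. At 8 weeks they were 3897 and 10102 in HD striatum and 4618 and 4553 in HD cortex, and WT had 3070 and 3084. Silence was defined by low WT counts, so that part of any HD excess follows from the definition. Ttr, the leading choroid plexus gene, was also above WT at 13 weeks. It had 1164 and 726 counts in HD striatum against 6 in WT and 775 and 33569 in HD cortex against 32 in WT. Its order over these HD libraries differed from that of the member sums, with the largest sum, 488, beside 775 counts of Ttr. The 8-week library that stood apart held 8653 counts of Ttr, 0 of Hoxb5, Hoxc6 and Hoxd8, 1 of Pou4f1 and 2 of Twist1. The part of tissue composition in these counts was not tested.

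Onecut2, a cut-homeodomain factor of neurons, was expressed in all libraries and was the other gene that led to the choice of families. In cortex it had 83.3 and 75.5 CPM in HD mice at 13 weeks against 24.3 CPM in WT. At 8 weeks it had 9.64 and 17.1 CPM in HD cortex against 13.8 CPM in WT. In striatum it had 151 and 118 CPM in HD mice and 108 CPM in WT at 13 weeks, and 68.5 and 57.6 CPM in HD mice and 94.7 CPM in WT at 8 weeks. The 13-week HD libraries were the highest of each region. The fold of HD over WT at 13 weeks was 3.27 in cortex and 1.24 in striatum. Onecut2 in HD mice was thus above WT at 13 weeks in both regions, whereas at 8 weeks the striatal HD libraries were below WT and the cortical ones lay on both sides of it.

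Over the 8 HD libraries, 25 members passed the filter on low counts, 2 of them silent in WT. Pou4f1 and Onecut2 were called higher after symptom onset (edgeR, adjusted p under 0.05), beside 6.47% of all genes called in either direction and 1.94% called higher. Their log2 fold changes were 6.10 (SE 0.64) and 1.82 (SE 0.32), which describe the genes that led to the choice. Without replicate 2 of HD striatum at 8 weeks, 10 members were called, beside 1517 of 14300 genes. Without replicate 1 of it 6 members were, beside 1482 of 14330 genes. Without replicate 1 or 2 of 13-week HD striatum, 4 and 5 members were called, beside 350 of 14298 and 500 of 14323 genes. Only Pou4f1 was called without either HD cortex library of 13 weeks or without replicate 2 of HD cortex at 8 weeks. These fits called 211 to 213 genes in all. Between HD and WT mice at 13 weeks, 38 members passed the filter and Hoxb5, Twist1 and Pou4f1 were called higher, beside 7.36% of all genes called and 3.1% called higher. Without the 13-week WT striatum library 0 of them was called, and without replicate 2 of HD striatum at 8 weeks 7 members were. Only Pou4f1 was called without the 13-week WT cortex library, either HD cortex library of either age, or replicate 1 of 13-week HD striatum. In this comparison 1834 of 14620 genes were called without replicate 2 of HD striatum at 8 weeks, so that the share over all genes moved too. The numbers of members called in both comparisons restate the choice of families and support nothing further.

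Some members with reads in WT striatum had lower values in HD striatum at 13 weeks. None of them was called between HD and WT mice by edgeR with all libraries, whereas DESeq2 called Pou3f1, and edgeR without replicate 2 of HD striatum at 8 weeks called Pou3f1 and Lhx2. Pou3f1 (Oct-6), a POU factor of neurons and Schwann cells, had 116 and 95.2 CPM there against 323 CPM in WT. Lhx2 had 25.2 and 25.7 CPM against 51.3 CPM. Lhx8, a factor of cholinergic neurons, had 6.15 and 3.42 CPM against 10.3 CPM. At 8 weeks the HD values spread more widely, 222 and 80.9 CPM for Pou3f1 against 244 CPM in WT. The lower value was in the library with the highest sum of thalamus markers. The markers of striatal neurons were lower beside these members at 13 weeks, as given above, and cholinergic markers summed to 36.8 and 42.5 CPM in HD striatum against 152 CPM in WT. Their part in these values was not tested.

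At 8 weeks no member was called between HD and WT mice. None of the 38 tested passed the threshold by edgeR's quasi-likelihood test (beside 2.1% of all genes). By the same test 0 had an unadjusted p under 0.05, beside 2049 of 14706 genes. DESeq2 called 0, beside 651 of 14193 genes. This comparison shares its HD libraries with the one that chose the families. The intervals were narrow for some members and wide for others. For Lhx2 the log2 fold change was -0.49 (95% interval -1.04 to 0.05) and for Pou3f4 it was 0.75 (-0.16 to 1.66). For Twist1 it was 1.28 (-1.66 to 4.22), so that a change of several-fold was not detectable at this depth.

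With age in WT mice, 0 of 38 members were called at 13 against 8 weeks (beside 0.0136% of all genes). None had an unadjusted p under 0.05 by edgeR, beside 266 of 14706 genes. DESeq2 called 0, and 1 had an unadjusted p under 0.05 by DESeq2, beside 328 of all genes. With 1 WT library per region and age, this test borrows its spread from the HD libraries.

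Whether the change after symptom onset differed between striatum and cortex was examined in the 8 HD libraries, which include those that chose the families. Of 35 members tested, 0 were called by edgeR (beside 0% of all genes) and DESeq2 called 1, Six3 (beside 16 of 9127 genes). By edgeR 8 members had an unadjusted p under 0.05, beside 519 of 14392 genes, and nothing is read from this share. In simulated data this comparison recovered 21 of 200 planted changes, so that 0 calls say little. For Onecut2 the striatal change was smaller than the cortical one by 1.43 on the log2 scale (SE 0.37), which is a description, since both changes entered the choice. Leaving out replicate 2 of HD striatum at 8 weeks, replicate 1 of it, or replicate 1 of HD cortex at 13 weeks gave 1 call each (Onecut2, Lhx9 and Six3). For Pou4f1 the difference was 0.21 (95% interval -1.73 to 2.14), so that a difference of several-fold in either direction was not detectable. The Hox genes had groups without any count, and their difference could not be estimated.

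Striatum and cortex were compared over all 12 libraries, with 6 libraries per region. The choice of families did not use the region, but the 12 libraries include the 13-week HD libraries that it did use, and members high only in HD cortex at that age passed the filter through these. Of the 38 members tested, 16 differed between the regions (42.1%, beside 20.6% of all genes). They comprised 8 higher in striatum (beside 8.51%) and 8 lower (beside 12.1%). Nothing is read from the share, and the calls of Pou4f1 and Onecut2 are descriptions. The CPM ranges of the regions did not overlap for 8 of the 38, all among the 16 called, beside 7.77% of all genes tested and 36.5% of all genes called. Without the 4 post-symptomatic HD libraries, 25 members were tested and 9 were called (36.0%, beside 14.2% of all genes), 5 higher in striatum and 4 lower. Among these were Six3, Lhx8, Onecut2, Pou3f4, Pou2f1, Lhx2, Pou3f2 and Pou6f1. Leaving out these libraries was chosen after the data were seen. Without replicate 2 of 13-week HD cortex, 10 members were called, beside 2635 of 14621 genes.

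The 8 members higher in striatum had varied roles, and Six3, Lhx8 and Nkx2-1 are known from the ventral forebrain. Six3, a sine oculis homeobox factor of the developing forebrain and striatal neurons, ranged from 769 to 1020 CPM in striatum (median 923) and from 0.326 to 24.4 CPM in cortex (median 3.55). Its log2 fold change was 7.30 (SE 0.93, adjusted p = 0.000848). Lhx8 ranged from 3.34 to 10.3 CPM in striatum and was 0 in 5 cortical libraries and 0.423 CPM in the remaining one. Its log2 fold change was 6.43 (SE 0.64, adjusted p = 2.5e-05). The regions did not overlap for either gene. Nkx2-1, which specifies the medial ganglionic eminence, differed by 4.55 (SE 0.92, adjusted p = 0.00403), but its lowest striatal value of 0.234 CPM overlapped the highest cortical value of 0.255 CPM. Without the post-symptomatic HD libraries its adjusted p was 0.0655. Lhx6, a further factor of the medial ganglionic eminence, was not called (log2 difference 0.05, 95% interval -0.37 to 0.47). Pou3f4 (Brn4) ranged from 14.3 to 57.4 CPM in striatum and from 3.23 to 9.09 CPM in cortex, a log2 difference of 2.49 (SE 0.31, adjusted p = 0.000271). Onecut2 was higher by 1.81 (SE 0.29, adjusted p = 0.00179), although its 13-week HD cortex values lay within the striatal range. Pou2f1 (Oct-1), Nkx6-2, a factor of oligodendrocytes, and Nkx2-9 differed by 0.80, 0.85 and 3.11 on the log2 scale. The call of Pou2f1 held under all 17 alternatives run, that of Nkx6-2 under 9 of 17 (highest adjusted p 0.144) and that of Nkx2-9 under 5 of 16 (highest adjusted p 0.110). Nkx6-2 lost its call without either HD cortex library of either age, without replicate 2 of 13-week HD striatum, without either 13-week WT library, and without the post-symptomatic HD libraries. Nkx2-9 lost it without most single libraries and with the replicate number as a block. Nkx6-2 was highest, at 207 CPM, in the 8-week HD striatum library that also had the highest sum of oligodendrocyte markers, 19145 CPM.

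The 8 members lower in striatum included 4 counted mainly in post-symptomatic HD cortex. Lhx2, a LIM-homeodomain factor that specifies cortex, ranged from 22.9 to 66.7 CPM in striatum and from 91.9 to 127 CPM in cortex. Its log2 fold change was -1.58 (SE 0.19, adjusted p = 0.000184). Pou3f2 (Brn2), a factor of upper-layer neurons, ranged from 20.3 to 33.4 CPM and from 54.4 to 69.9 CPM, a difference of -1.18 (SE 0.13, adjusted p = 4.38e-05). Pou6f1 differed by -1.21 and Twist2 by -3.05, the latter at 0 to 0.234 CPM in striatum and 0.326 to 1.35 CPM in cortex. The call of Twist2 held under 9 of 15 alternatives and was lost without replicate 1 of 13-week HD striatum, replicate 1 of 8-week HD cortex, or any WT library. Pou3f3 (Brn1), among the most abundant members at a median of 109 CPM in striatum and 113 CPM in cortex, was not called (log2 difference -0.15, 95% interval -0.35 to 0.06).

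The calls of Hoxb5, Pax2, Twist1 and Pou4f1 between the regions came with a high value in the 13-week HD cortex libraries. Their medians in cortex were 0.0425, 0.0968, 0.427 and 0.516 CPM. None of these 4 passed the filter on low counts without the post-symptomatic HD libraries.

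**Figure D4:**
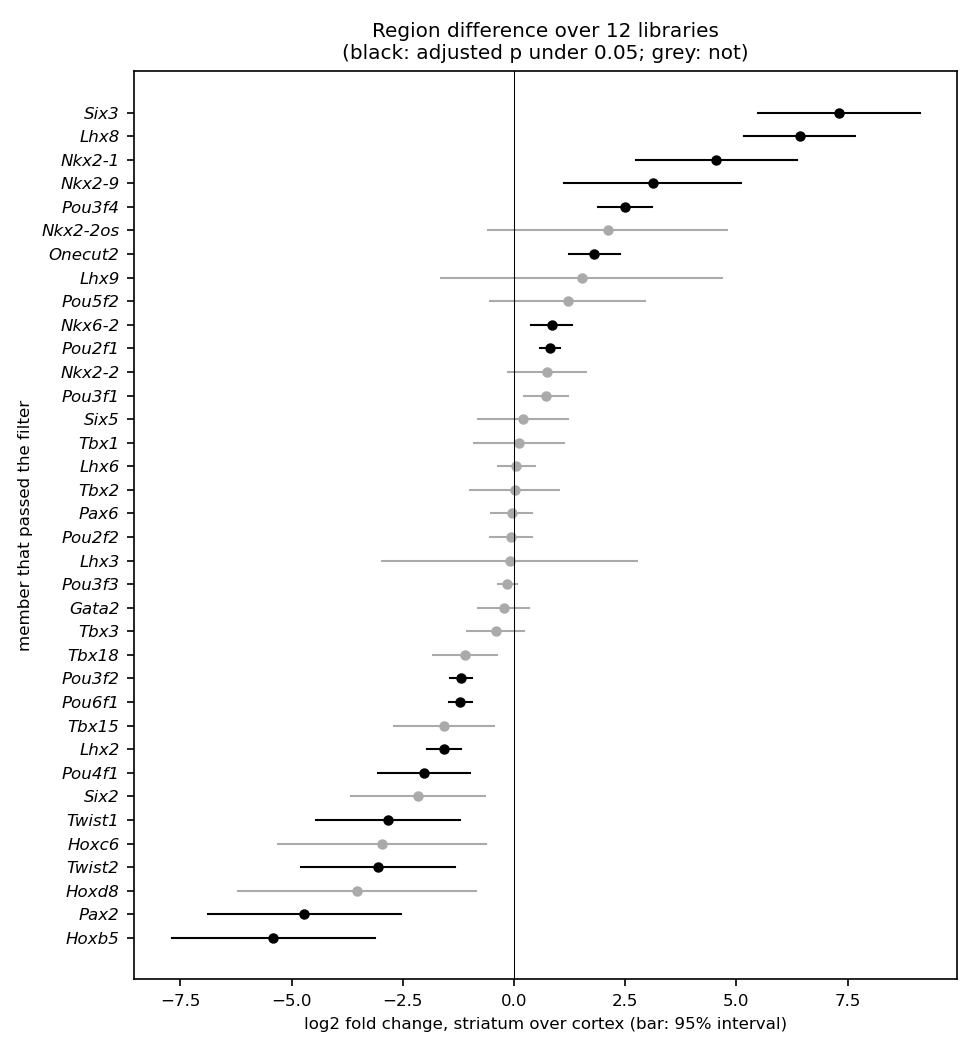
Log2 fold change of striatum over cortex for members that passed the filter (not all are shown), with an approximate 95% interval from the SE, black where the adjusted p was under 0.05. Six3 and Lhx8 lie farthest to the right at 7.30 and 6.43, and Hoxb5 farthest to the left at -5.41.

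**Figure D5:**
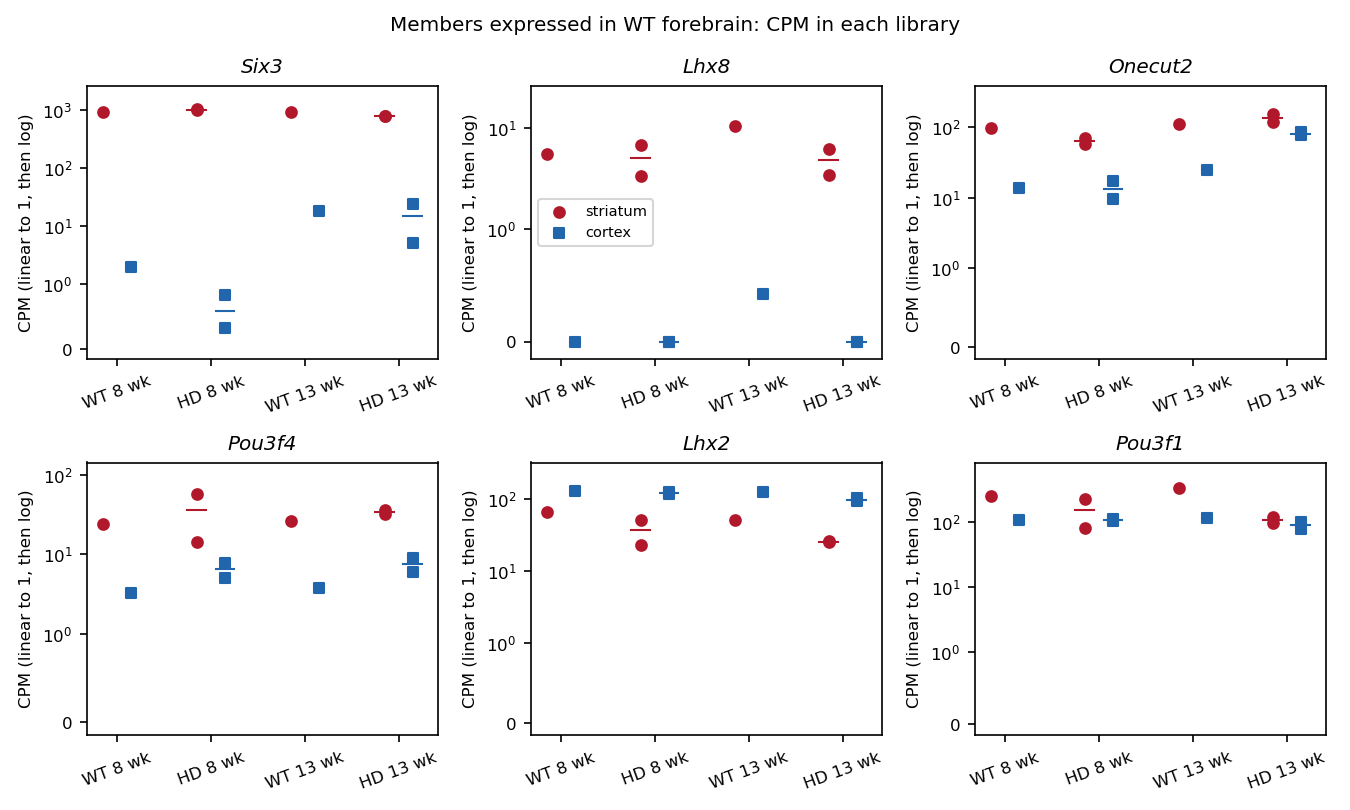
CPM of 6 members expressed in WT forebrain, on an axis that is linear to 1 CPM and logarithmic above, with circles for striatum, squares for cortex and a line at the mean of 2 HD libraries. Six3 and Lhx8 separate the regions in each group, and Onecut2 in 13-week HD cortex (75.5 and 83.3 CPM) lies above the other cortex libraries.

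Homeobox genes of further families were compared in the same fits. Of 67 such genes, 35 were tested over the 12 libraries. Of these, 9 were higher in striatum (beside 8.51% of all genes), among them Isl1 and Meis2 (log2 fold changes of 7.75 and 2.09), factors of striatal projection neurons, and 6 were lower (beside 12.1%), among them Emx1 and Otx1 (-5.52 and -2.85), factors of the cortex. Their median log2 fold change was 0.69, against 0.01 over all genes. Between HD and WT mice edgeR called 0 of 35 at 13 weeks (beside 7.36%) and 0 at 8 weeks (beside 2.1%). Over the HD libraries 1 of 31, Dbx2, was called (beside 6.47%), and it was lower after symptom onset. Shox2, a factor of thalamic neurons, had 392 and 308 counts in HD striatum, 165 and 134 in HD cortex at 13 weeks and 0 in all WT libraries. It was not called, and its 3904 counts in replicate 2 of HD striatum at 8 weeks came with the thalamus markers. The sum of those markers was also above WT in 13-week HD striatum and below WT in 13-week HD cortex. The part of thalamic tissue in the Shox2 counts was not tested.

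The Polycomb group, which keeps Hox genes silent, was followed with a list of 30 genes, of which 28 were tested. The list also held the histone demethylases Kdm6a and Kdm6b, which are not Polycomb group proteins. After symptom onset in HD mice, Cbx7, Phf1 and Bmi1 were higher and Cbx6 was lower (edgeR log2 fold changes of 0.76, 0.85, 0.75 and -0.64, with adjusted p-values of 0.0157, 0.0362, 0.0207 and 0.0175). These were 4 of 28 genes, beside 6.47% of all genes. Between HD and WT mice at 13 weeks, Suz12 was higher (1.22) and Cbx6 was lower (-0.77), in a comparison that called 7.36% of all genes. At 8 weeks 2 of 28, Suz12 (1.05) and Pcgf3, were higher, beside 2.1% of all genes called in either direction. The counts of Suz12, a core subunit of Polycomb repressive complex 2, were 717 and 587 in HD striatum and 346 in WT striatum at 13 weeks. The median log2 fold change over the 28 genes was 0.21 after symptom onset, against 0.00 over all genes, and 0.14 between HD and WT mice at 13 weeks, against 0.01.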

How the data were processed

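RNAseq was performed on striatum and cortex of HD and WT mice, in 12 libraries grouped by their labels. Libraries were prepared with the Lexogen QuantSeq kit from 500 ng of total RNA. The authors deposited raw counts of reads per gene symbol and library, without normalization. The submitters' processing notes name Bowtie2, bedtools and the mm10 build, while versions, annotation, strand and counting rule are not given in the sources used here. The members and gene lists were chosen with earlier results of these data known.

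From the deposited counts, edgeR 4.0.16 under R 4.3.3 gave fold changes and p-values by its quasi-likelihood test with robust dispersion, after TMM scaling and a filter (filterByExpr, minimum count 10). P-values were adjusted over all genes tested (Benjamini-Hochberg, threshold 0.05). Of the 23282 rows, 44 repeated a symbol and 4306 had no count. HD stages were compared in the 8 HD libraries, adjusting for region, or with a mean for each region and stage for the difference between regions. HD and WT mice, ages and regions were compared in all 12 libraries with terms for region and the 4 groups of genotype and age. With 1 WT library per region and age, p-values hold little variation between WT mice, and the spread may be partly technical. Approximate 95% intervals were taken from the SE with the normal distribution.

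Alternatives were upper-quartile normalization, DESeq2 1.42.0, a replicate block, no filter on counts, leaving out each library, and limits of 0 and 40 counts for silent genes. Named members are Pou4f1, Onecut2, those called in any comparison, the 3 most abundant per region, and silent members above WT in both regions at 13 weeks. A few genes are not reported here. The methods were tested on simulated data with 200 planted changes per comparison, all of a single size and in either direction. The numbers recovered hold for that size only. Of these, 144 were recovered after symptom onset, 106 between HD and WT mice at 13 weeks and 112 at 8 weeks. Between striatum and cortex 168 were recovered, between WT ages 94, and for the difference between regions after onset 21. False calls were 0.885% to 16% of the calls. Gene positions came from GENCODE M21 (GRCm38), which held all 124 members.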

Additional observations from a re-analysis of the deposited data

Results flagged for a closer look

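Six3 moved in opposite directions in the regions in every HD library. After against before symptom onset in HD mice, the log2 ratio of mean CPM was -0.36 in striatum and 4.67 in cortex. The test of this difference gave -4.95 (SE 1.07, unadjusted p = 0.00255, adjusted p = 0.9999 by edgeR). The cortical counts were 60 and 277 at 13 weeks and 8 and 3 at 8 weeks, while WT cortex had 213 and 23, and striatum had 7194 to 9645. Against WT at 8 weeks, the log2 ratio of Six3 was 0.11 in striatum and -1.75 in cortex, a difference that was not tested.

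Pou3f2 did the same with smaller values. After against before symptom onset it had a log2 ratio of 0.35 in striatum, and of -0.25 in cortex, with a tested difference of 0.65 (SE 0.25, unadjusted p = 0.0288, adjusted p = 0.9999 by edgeR). Against WT at 8 weeks it was -0.55 in striatum and 0.16 in cortex, which was not tested as a difference.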

How the results depend on the processing

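Among the values of single members under an alternative, 335 kept their direction and side of the threshold, 56 fell below it, 2 passed it and 5 changed sign. The sign changed for Onecut2 between HD and WT mice at 8 weeks without the WT striatum library of that age (0.31, within -0.85 to 0.31 over single libraries left out), and for the difference of Pou4f1 between regions without replicate 2 of 13-week HD striatum (-0.11) or cortex (-0.19), or replicate 1 of 8-week HD striatum (-0.62) or cortex (-4.26, within -4.26 to 2.63). None of these was called, and the cause was not tested. Members called after symptom onset numbered 2, 5 with no filter, 4 with DESeq2, and 1 to 10 with single libraries left out. Over all genes the number called was 902, 990 with no filter, 1610 with DESeq2, and 211 to 1517 with single libraries left out. Between HD and WT mice at 13 weeks the number was 3, and 0 to 7 with single libraries left out. The regions differed for 16 members, for 10 to 17 with single libraries left out, and for 9 without the post-symptomatic HD libraries, where fewer samples were tested. The difference between regions after symptom onset was called for 0 members, 1 with DESeq2 and 0 to 1 with single libraries left out. Counts at 8 weeks and between WT ages stayed at 0 under each alternative run. With silent defined as no WT count, 58 members were silent and 1 of them was above WT in both regions at 13 weeks, against 6 as defined here and 6 to 11 with single libraries left out. With the replicate number as a block, the calls were 5 after symptom onset, 1 between HD and WT mice at 13 weeks and 15 between regions. Deviations of samples that share a number correlated at 0.00235 to 0.185, and the numbers are not shown to pair the mice. Genes at a few counts are limited by depth.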
